A study of Mus musculus with 20 samples.

Results

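Histones are the proteins around which DNA is wound, and the genes examined here encode the 4 core histones H2A, H2B, H3 and H4 of the clustered, replication-dependent kind together with the linker histones H1. Members were all probe sets of the Clariom S mouse array whose annotation gave exactly 1 symbol of the Hist1 to Hist4 clusters, in the older or the current spelling, or any H1f symbol, which also takes in H1f7, H1f8 and H1f10 from outside the clusters. The rule found 57 genes among 19572 probe sets with 1 gene symbol, each gene with 1 probe set: 8 linker histone genes, 13 for H2A, 15 for H2B, 10 for H3 and 11 for H4. Current symbols are used below, and the array's older symbols differ (H1f2 is Hist1h1c, H2bc4 is Hist1h2bc and H3c1 is Hist1h3a).

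Messenger RNAs of the replication-dependent histones are made mainly in S phase, when new DNA needs new nucleosomes, and they end in a stem-loop that the protein SLBP binds instead of in a poly(A) tail. Some clustered histone genes can also give polyadenylated messages in cells that are leaving the cell cycle. Linker histones bind the nucleosome where DNA enters and leaves it, and in maturing mouse erythroblasts the chromatin condenses and part of the core histones passes out of the nucleus through openings in its envelope before the nucleus is expelled.

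The study asked which transcripts differ in erythroid cells under 2 conditions of disturbed red cell formation, one in culture and one in mice. In culture, lineage-depleted bone marrow cells of female wild-type C57BL/6 mice were grown with erythropoietin, the hormone that drives red cell formation, either alone (D1-Control, D2-Control) or with interleukin-6 (IL-6), an inflammatory cytokine, at 100 ng/mL from the start (D1-IL6, D2-IL6). All 4 cultured groups therefore received erythropoietin, and the labels do not define D1 and D2 further. The in vivo arrays hold cells of C57BL/6 mice aged 1 year that were either wild type for both genes (DWT) or lacked both mDia1, a formin that builds actin filaments, and the microRNA miR-146a (DKO), with 2 mice per genotype. By the labels, proerythroblasts make up stage I, while stage II+III joins the basophilic with the polychromatic cells and orthochromatic erythroblasts form stage IV, and how these were isolated is not given in the sources used here. Each of the 10 groups has 2 arrays. DWT replicate 1 was male and replicate 2 female at every stage, and all DKO arrays came from females, so sex and genotype overlap in part.

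Promoters of H1 and H2B genes that the results below name are shown first, as examples of the elements known from histone promoters. They are the 200 bases before the annotated start, from RefSeq on GRCm38.p6, printed 5′ to 3′ on the gene's strand: H1f1 at chr13:23763468-23763667 on the plus strand, H1f2 at chr13:23738607-23738806 on the plus strand, H1f3 at chr13:23554832-23555031 on the plus strand, H1f5 at chr13:21780626-21780825 on the minus strand, and the H2B genes H2bc13 at chr13:21716184-21716383 on the minus strand and H2bc18 at chr3:96269500-96269699 on the plus strand. Capitals mark matches on either strand to CCAAT (the box bound by NF-Y), TATAAA (the TATA box), ATTTGCAT (the octamer bound by Oct1) and AAACACA (an element of H1 promoters).
H1f1: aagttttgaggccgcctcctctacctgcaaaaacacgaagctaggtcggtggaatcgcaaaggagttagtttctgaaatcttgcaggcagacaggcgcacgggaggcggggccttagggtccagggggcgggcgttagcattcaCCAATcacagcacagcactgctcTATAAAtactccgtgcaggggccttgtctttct
H1f2: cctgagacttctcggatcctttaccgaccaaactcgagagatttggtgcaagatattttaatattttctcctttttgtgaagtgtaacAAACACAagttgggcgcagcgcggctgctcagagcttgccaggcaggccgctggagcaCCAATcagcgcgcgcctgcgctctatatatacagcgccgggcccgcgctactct
H1f3: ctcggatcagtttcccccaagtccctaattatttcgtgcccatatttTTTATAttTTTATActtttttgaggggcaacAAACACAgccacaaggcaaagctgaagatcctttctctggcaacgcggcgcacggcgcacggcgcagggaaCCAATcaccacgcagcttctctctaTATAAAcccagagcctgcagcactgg
H1f5: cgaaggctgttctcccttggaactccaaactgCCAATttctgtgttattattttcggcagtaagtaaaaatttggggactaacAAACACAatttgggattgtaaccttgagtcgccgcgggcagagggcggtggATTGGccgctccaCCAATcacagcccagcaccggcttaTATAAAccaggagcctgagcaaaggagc
H2bc13: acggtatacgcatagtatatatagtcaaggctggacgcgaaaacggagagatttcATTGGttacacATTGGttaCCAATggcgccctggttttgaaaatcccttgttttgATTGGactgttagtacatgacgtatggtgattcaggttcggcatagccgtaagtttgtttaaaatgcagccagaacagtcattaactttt
H2bc18: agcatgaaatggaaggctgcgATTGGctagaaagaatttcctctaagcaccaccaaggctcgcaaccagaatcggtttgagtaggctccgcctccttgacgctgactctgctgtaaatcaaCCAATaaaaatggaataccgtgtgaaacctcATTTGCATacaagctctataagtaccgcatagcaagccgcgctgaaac

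RefSeq held a promoter for 52 of the 57 genes, and the shares below are of these 52 against 32851 entries of the table, in the same 200 base window. CCAAT was found in 78.8% of the histone promoters against 29.3% of all entries, and in every H2A and H2B promoter, but in 30% of those of H4. TATAAA was found in 40.4% against 9.96%. The octamer ATTTGCAT was found in 23.1% against 1.38%, in 6 of 13 H2A and 6 of 13 H2B promoters and in no other family. AAACACA was found in 4 of 8 H1 promoters, among them H1f2, H1f3 and H1f5 but not H1f1, and in 13.5% of all histone promoters against 4.8% of all entries. Of the 2 H2B promoters printed, H2bc18 holds an octamer and H2bc13 does not. These letter matches are descriptions and were not tested as binding sites. Some H2A and H2B genes lie head to head, with 7 such pairs whose starts are within 1000 bases (for example H2ac8 with H2bc8 and H2ac15 with H2bc15). Where such starts lie close, the windows of 200 bases can share sequence, and in how many pairs they do was not measured.

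Values are log2 RMA signals, on which 1 unit is a doubling. As the limit of background on each array, the 95th percentile of its background control probes was taken, and this limit was 7.25 to 7.74. Of the 57 genes, 51 were above background on all 20 arrays, 3 on some (H1f6, H2bc1 and H3c1) and 3 on none (H1f7, H1f8 and H1f10). Levels of different genes are not ranked, since probe sets differ in how strongly they bind. H3c14 and H3c15 had identical values on every array, and the sets H2ac11, H2ac12 and H2ac24, and H2bc11 and H2bc12, differed by less than 0.2 throughout. Such near-identical copies are not told apart by these values and are not independent observations. The limit of 0.2 concerns levels only, so other genes may also fail to be independent. The counts below take each gene separately.

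Across arrays, 34.9% to 43.0% of named probe sets were above background and their median was 6.45 to 6.75. The replicates of a group correlated across genes with r of 0.97 to 0.994, except those of DKO stage I with r of 0.903. DKO stage I replicate 2 stood apart: its ribosomal protein transcript Rps14 read 12.32, against 16.02 to 17.28 on the other arrays, and the histone median was 13.35 against 16.10 in replicate 1. The in vivo counts are therefore given with and without that array. Diaph1, which encodes mDia1, read 6.87 to 7.59 in the DKO arrays and 8.97 to 11.49 elsewhere. The mean of the erythroid marker list was 14.66 to 15.11 in culture, and 6 or 7 of its 9 genes were above background in DKO stage I, against 9 of 9 in every other group. In DKO stage I that mean was 9.04 to 9.79, against 12.83 to 12.98 in DWT stage I, while the neutrophil list averaged 15.50 to 16.90 in DKO and 16.05 to 16.27 in DWT. Erythroid markers are thus low for the label in DKO stage I, and neutrophil transcripts are high at stage I in both genotypes. In bulk arrays such as these, fewer cells of a type and less RNA per cell cannot be told apart.

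Most of the 57 histone genes were above background on every array (51 genes), and on the deposited scale most were highest at stage IV. Whether cultured and in vivo arrays were normalised together is not given in the sources used here, so an order of levels across both sets depends on that. The median of the 57 genes was 16.43 to 16.57 on the D1 arrays and 16.06 to 16.30 on the D2 arrays. In DWT mice it read 16.59 and 16.40 at stage I, 16.97 and 16.59 at stage II+III, and 17.21 and 17.18 at stage IV. In DKO mice it read 16.10 and 13.35, then 16.28 and 16.24, then 17.29 and 17.06. Leaving DKO stage I aside, 54 of the 57 genes had their highest group mean at stage IV, and 34 had their lowest in a D2 group.

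**Figure D1:**
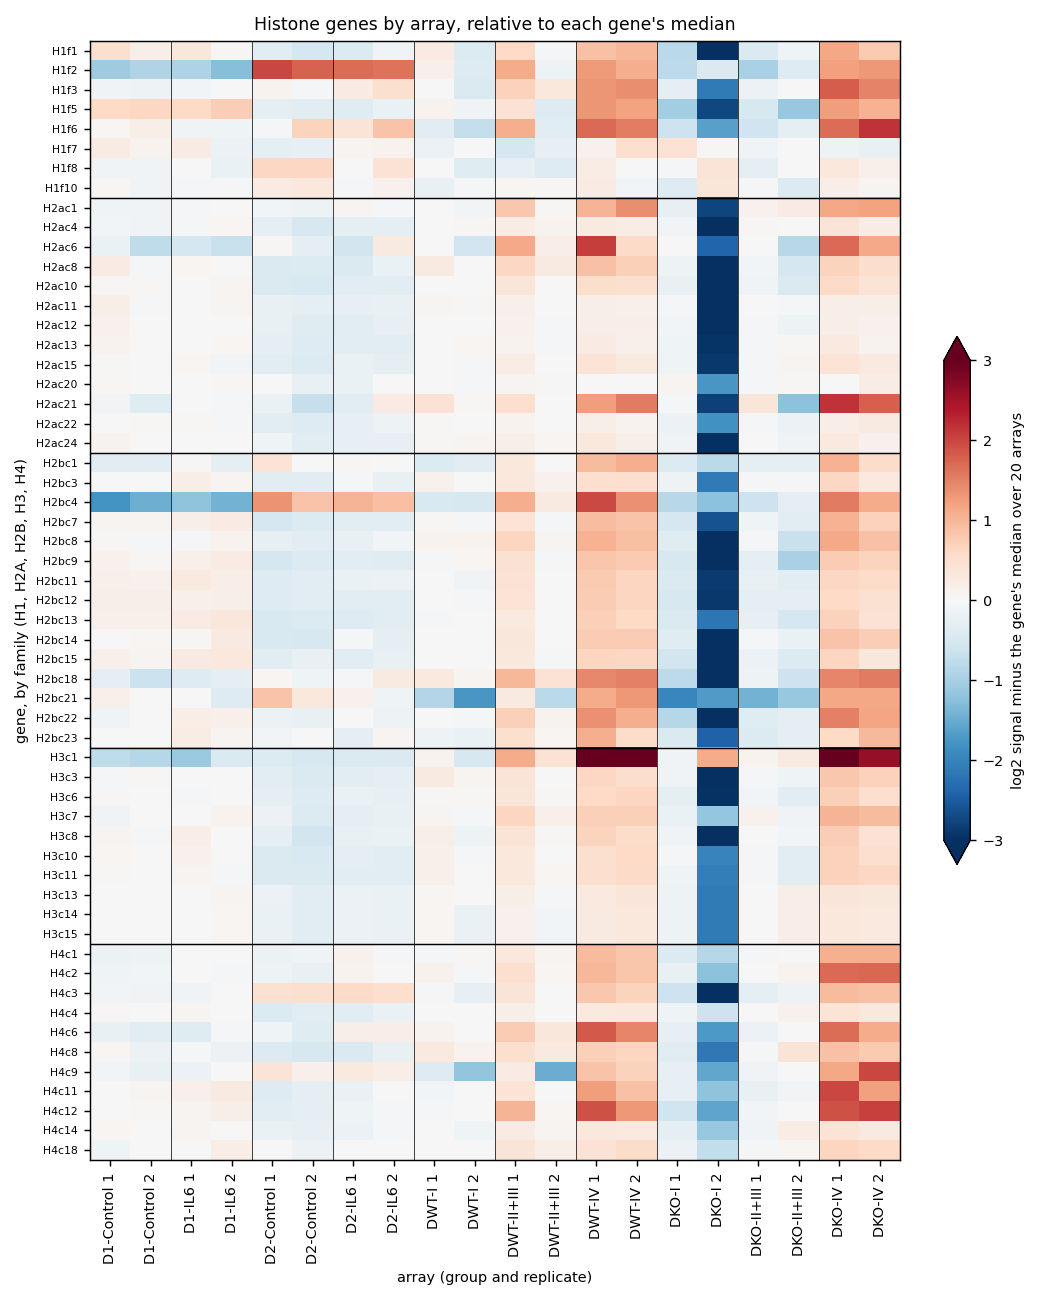
Log2 signal of the 57 histone genes (rows, by family) on the 20 arrays (columns, by group), each minus the gene's median over the arrays, with the colour scale capped at 3 either way. Most rows are highest in the stage IV columns, DKO stage I replicate 2 is low in nearly all rows, and H1f2 and H2bc4 are high at D2.

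The genes differed in how far their level moved. Over all 10 groups the widest range of group means in each family was 3.70 for H1f1, 3.77 for H2ac4, 4.25 for H2bc18, 4.12 for H3c1 and 3.06 for H4c12. The narrowest was 0.52 for H1f10, which is near background, 0.94 for H2ac20, 1.62 for H2bc1, 1.44 for H3c15 and 0.75 for H4c4. DKO stage I sets many of these ranges: H2ac4 read 9.69 in its replicate 2 and 16.06 to 16.92 on the other 19 arrays, and H2ac20 read 16.47 there and 18 to 18.44 elsewhere. Without DKO stage I the range was 4.12 for H3c1, 3.30 for H2bc4, 2.99 for H1f2 and 2.53 for H2bc21, and 0.23 for H2ac20. Without that group, the 12 genes with a mean of 17 or more in every group ranged by 0.23 to 0.75, with a median of 0.56. The other 39 genes that were above background on every array ranged by 0.69 to 3.3, with a median of 1.28. Signals near the top of the array's scale may be compressed, which was not tested.

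In the control cultures, most histone transcripts were lower at D2 than at D1, and a few were much higher. With limma and Benjamini-Hochberg adjustment over all 19572 probe sets, 31 of the 57 genes fell at an adjusted p under 0.05, where 23.5% of all probe sets fell, and 5 rose, where 19.7% of all rose. The median change of the 57 was -0.28 on the log2 scale, against 0.17 over all probe sets. All probe sets here include those below background. In the IL-6 cultures 29 fell, against 20.2% of all, and 5 rose, against 13% of all, with a median of -0.23 against 0.09. The arrays of the 2 time points are different in each medium, so these are separate measurements. In both media 28 genes fell, which is 90.3% of the falls in control and 96.6% of those with IL-6. Another 4 rose in both (H1f2, H2bc4, H4c3 and H2bc18). The overlap among all probe sets is not given, so this overlap is not read as particular to histone genes.

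The linker histones among the 57 genes went both ways. H1f0 and H1f4 (Hist1h1e), also linker histone genes, are not among the 57, so the family is not covered in full. H1f2 encodes H1.2, an abundant somatic H1 whose human counterpart is known to give polyadenylated messages too. It read 12.92 and 13.09 in D1-Control, 13.06 and 12.72 in D1-IL6, 16.00 and 15.77 in D2-Control, and 15.66 and 15.63 in D2-IL6. All 4 arrays of D2 lay over 2 units above all 4 of D1, with and without IL-6. From D1 to D2 it rose by 2.88 ± 0.15 (SE, 2 arrays against 2) in control (adjusted p = 2.0e-07) and by 2.75 ± 0.15 with IL-6 (adjusted p = 3.2e-07), the largest difference among the 57 genes between these time points in each medium.

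H1f5, another somatic linker histone gene, went the other way. It read 14.75 and 14.78 in D1-Control, 14.75 and 14.89 in D1-IL6, 13.86 and 13.85 in D2-Control, and 13.80 and 13.95 in D2-IL6. Every D2 array was lower than every D1 array. It changed by -0.91 ± 0.12 in control and by -0.94 ± 0.12 with IL-6 (adjusted p = 1.4e-04 in each). H1f1, which encodes H1.1, read 16.88 and 16.59 in D1-Control and 16.06 and 15.88 in D2-Control, without overlap, and fell by 0.77 ± 0.14 (adjusted p = 0.0011). With IL-6 it read 16.76 and 16.44 at D1 and 16.00 and 16.30 at D2, again without overlap but closer, and fell by 0.45 ± 0.14 (adjusted p = 0.027).

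H1f3, which encodes H1.3, read 14.06 and 14.02 in D1-Control and 14.28 and 14.11 in D2-Control, a difference of 0.16 (adjusted p = 0.35). With IL-6 it rose by 0.40 ± 0.13 (adjusted p = 0.038), a call that was lost when arrays were centred on their medians (0.31, adjusted p = 0.17) or quantile normalised again (0.24, adjusted p = 0.18). H1f6, the testis linker histone gene, was near background on most cultured arrays and differed by 0.18 in control (adjusted p = 0.66). H1f8 is counted among the 5 rises in control. It and the remaining 2 were below background on every array: H1f8, an oocyte gene, showed 0.72 ± 0.21 in control (adjusted p = 0.021) between values of 4.75 to 4.76 and 5.47 to 5.48, H1f7, a testis gene, showed -0.44 (adjusted p = 0.16) and H1f10 0.31 (adjusted p = 0.28). A call at such levels is not a measured transcript.

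**Figure D2:**
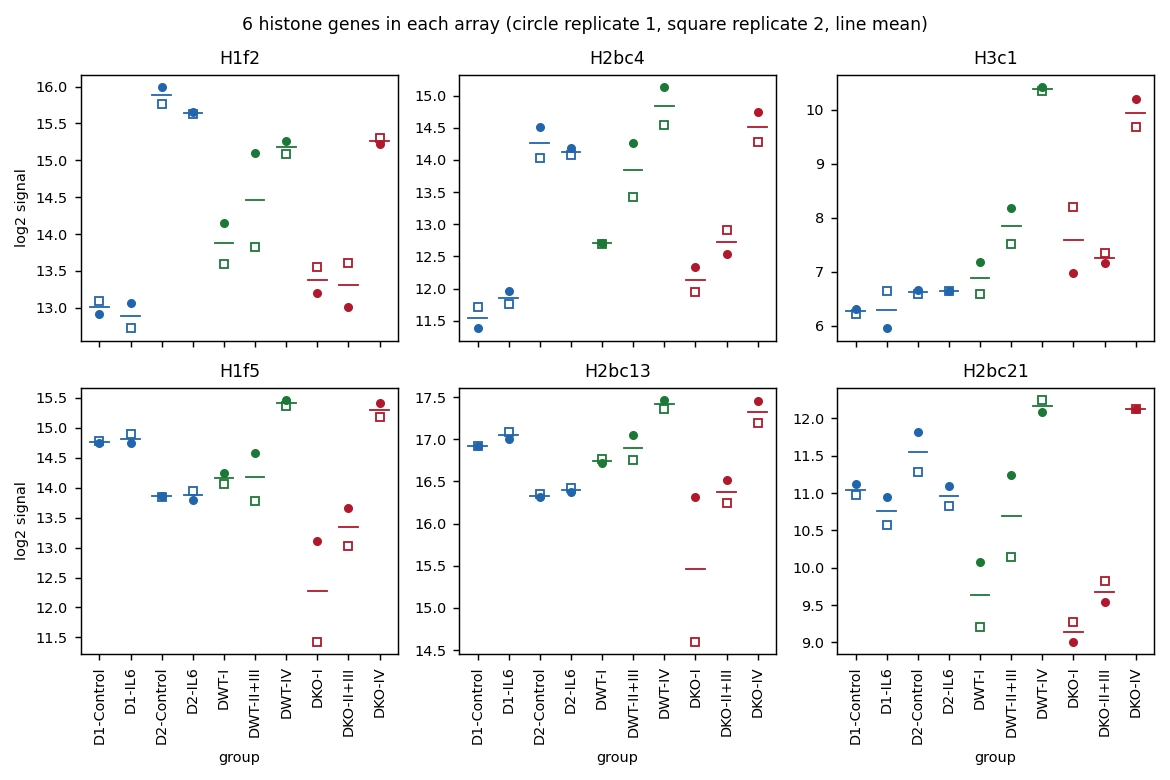
Log2 signal of H1f2, H2bc4, H3c1, H1f5, H2bc13 and H2bc21 in the 10 groups, with a circle for replicate 1, a square for replicate 2 and a line at the mean. H1f2 and H2bc4 step up from D1 to D2 in both media, H1f5 and H2bc13 step down, and H3c1 and H2bc21 are highest at stage IV in vivo in both genotypes.

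Among the H2A genes, whose protein pairs with H2B in the nucleosome, 9 of 13 fell at D2 in control and none rose, with a family median of -0.33. The members named by size were H2ac8, which read 17.52 and 17.22 at D1 and 16.85 and 16.88 at D2 and fell by 0.50 ± 0.10 (adjusted p = 0.0020), and H2ac10, which read 17.33 and 17.33, then 16.87 and 16.84, and fell by 0.48 ± 0.06 (adjusted p = 6.4e-05). The D1 and D2 arrays did not overlap for either. With IL-6 the count was again 9 of 13, and H2ac10 fell by 0.39 ± 0.06 (adjusted p = 3.2e-04).

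The H2B genes held both the second largest rise and the largest number of named falls, with 9 of 15 falling and 2 rising in control and 8 and 2 with IL-6. H2bc4 read 11.38 and 11.71 in D1-Control, 11.96 and 11.76 in D1-IL6, 14.51 and 14.03 in D2-Control, and 14.18 and 14.07 in D2-IL6. The D2 arrays were all above 14 and the D1 arrays all below 12. Its rise was 2.73 ± 0.20 in control (adjusted p = 2.5e-06) and 2.27 ± 0.20 with IL-6 (adjusted p = 1.2e-05). H2bc18 showed a smaller difference, of 0.42 ± 0.14 in control (adjusted p = 0.033) and 0.43 ± 0.14 with IL-6 (adjusted p = 0.034). It passed on the deposited scale only, and was 0.29 and 0.34 with arrays centred on their medians (adjusted p = 0.18 and 0.14) and 0.06 in each medium after quantile normalisation (adjusted p = 0.79 and 0.81). Median centring shifts the median of all probe sets from 0.17 to 0.04 in control.

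Of the falling H2B genes, H2bc13 read 16.92 and 16.92 in D1-Control, 17.01 and 17.09 in D1-IL6, 16.31 and 16.35 in D2-Control, and 16.37 and 16.42 in D2-IL6. The 2 time points are separated in both media, and the replicates lie within 0.1. It fell by 0.59 ± 0.06 in control (adjusted p = 3.5e-05) and by 0.65 ± 0.06 with IL-6 (adjusted p = 2.4e-05). In control H2bc9, H2bc12, H2bc7, H2bc14 and H2bc11 fell by 0.55, 0.54, 0.53, 0.50 and 0.49. With IL-6 H2bc15, H2bc7, H2bc9, H2bc12 and H2bc11 fell by 0.56, 0.54, 0.53, 0.49 and 0.43.

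All but 2 of the 10 H3 genes fell in control and all but 1 with IL-6, and none rose, with a median of -0.29 in control. H3c10 read 17.35 and 17.28 in D1-Control and 16.86 and 16.83 in D2-Control, without overlap. With IL-6 it fell by 0.38 ± 0.06 (adjusted p = 6.7e-04). H3c1 was near background on all 8 cultured arrays, at 5.95 to 6.66. The H4 genes moved least, with 3 of 11 falling and 1 rising in control (median -0.09) and 1 and 1 with IL-6. The riser, H4c3, read 15.96 and 15.95 in D1-Control, 15.93 and 16.03 in D1-IL6, 16.50 and 16.52 in D2-Control and 16.61 and 16.55 in D2-IL6. Its D2 arrays were all higher than its D1 arrays, with a rise of 0.56 ± 0.07 in control (adjusted p = 1.4e-04) and 0.60 ± 0.07 with IL-6 (adjusted p = 1.1e-04). In control that call was lost after quantile normalisation (0.18, adjusted p = 0.077).

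**Figure D3:**
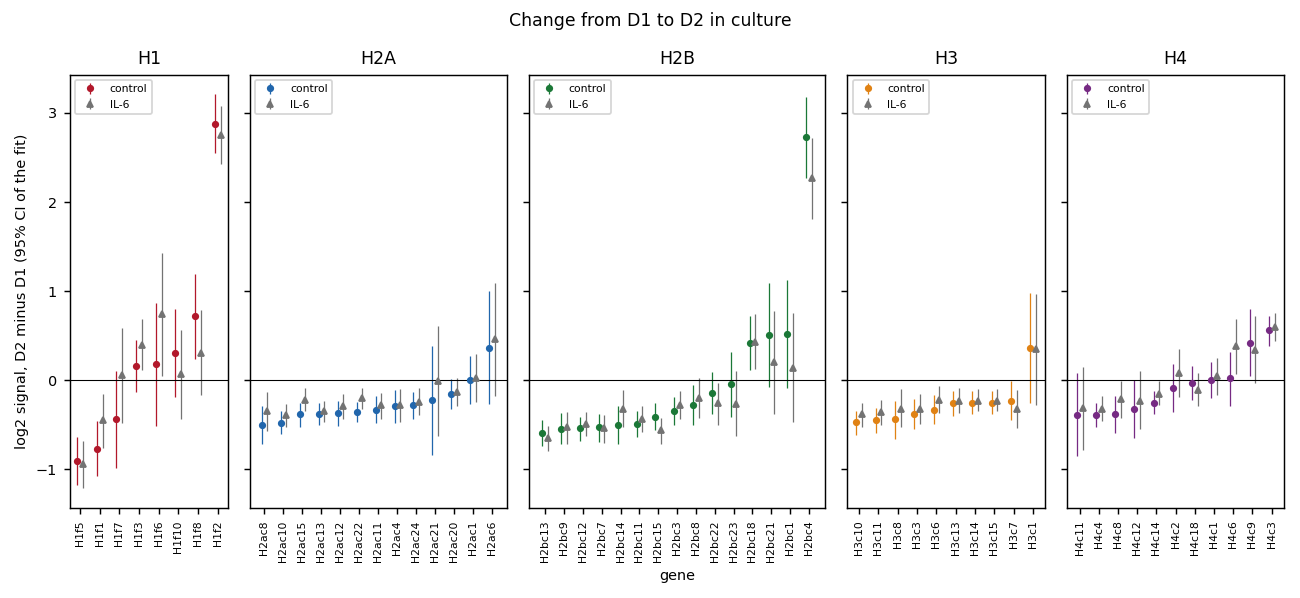
Log2 signal at D2 minus D1 for each histone gene by family, as coloured circles in control cultures and grey triangles in IL-6 cultures, with 95% confidence intervals. Most genes lie just below 0, and H1f2 and H2bc4 stand far to the positive side in both media.

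By chromosome, 27 of the 46 genes on chromosome 13 fell in control and 3 rose, and 4 of the 8 on chromosome 3 fell and 1 rose. The 12 genes of high signal, defined above, gave 11 falls and no rise with a median of -0.31, and the other 45 gave 20 falls and 5 rises with a median of -0.28. Genes of DNA replication and of histone message and protein handling were also lower at D2, with larger median differences than the histone genes, though the difference between the lists was not tested. In control 25 of 26 DNA replication genes fell (median -2.40), among them the CMG helicase subunit gene Gins2 at -3.23, the licensing factor gene Cdt1 at -3.20 and Gins1 at -3.06. Of 17 genes for histone message synthesis and processing 14 fell and 1 rose (median -1.78), with the cyclin E gene Ccne1 at -3.05, E2f1 at -2.89 (at least 1.67 lower, since it was near background at D2) and the cap-binding gene Ncbp1 at -2.46. Slbp, whose protein binds the stem-loop, fell by 1.90 and Npat, which encodes the S-phase activator of histone genes, fell by 0.88, whereas Lsm10, of the U7 particle that cuts histone messages, rose by 1.54.

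Histone chaperone and import genes fell in 15 of 17 cases in control and rose in 2 (median -1.63), with the importin gene Ipo4 at -4.34 (at least 2.53 lower), Nasp at -3.41 and the CAF-1 subunit gene Chaf1b at -3.08. Of 12 genes linked to nuclear condensation 9 fell and 1 rose (median -1.10): Xpo7, the exportin needed for histone release in erythroblasts, rose by 7.29, the deacetylase gene Hdac2 fell by 4.34 and the acetyltransferase gene Kat2a fell by 3.39 (at least 1.38 lower). Among 11 genes for replacement variants, which are made outside S phase, 5 fell and 1 rose (median -0.17), with Macroh2a1 at -2.80 and H2az1 at -1.04. The call counted as a rise was Hils1 at 1.11, whose signal was below background on every array, so it is not a measured transcript. With IL-6 the same lists gave 25 of 26, 14 of 17, 14 of 17, 9 of 12 and 5 of 11 genes falling. Markers of other cells moved as well in control: 7 of 9 monocyte genes (median -3.39), 6 of 13 neutrophil genes (-1.04) and 5 of 6 stem and progenitor genes (-3.01) fell, while 3 of 9 erythroid genes rose and 2 fell (0.11). The part of this change in cell types in the histone differences was not tested.

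IL-6 itself changed no histone transcript past the threshold. At D1 limma called 0 of 57 genes, where 0.0511% of all probe sets passed, and 1 gene had an unadjusted p under 0.05. The median difference of IL-6 minus control was 0.04, against 0.00 over all, and the 3 genes with the smallest p differed by 0.17 ± 0.07 (H2bc15), 0.23 ± 0.11 (H2bc22) and 0.14 ± 0.07 (H2bc7), each with an adjusted p of 1.00. The 2 IL-6 arrays were both above the 2 control arrays for 22 genes, where 17.8% of all probe sets were, and below for 2, where 16.8% were.

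At D2 again 0 of 57 passed, against 3.31% of all probe sets, and 8 had an unadjusted p under 0.05. The median difference was 0.11, against -0.07 over all, and 47 of the 57 differences were above 0, against 42.2% of all. H4c6 read 14.71 and 14.46 in D2-Control and 15.01 and 15.03 in D2-IL6, a difference of 0.44 ± 0.14 (adjusted p = 0.16). H2bc14 read 16.22 and 16.21, then 16.62 and 16.40, a difference of 0.29 ± 0.09 (adjusted p = 0.17), and H2bc3 read 16.86 and 16.87, then 17.16 and 16.99, a difference of 0.21 ± 0.07 (adjusted p = 0.20). The groups did not overlap for these 3 genes, nor for 28 genes in all with IL-6 higher, where 16.3% of all probe sets were so, and 4 with IL-6 lower, where 22.5% were. Beside these values, the mean of the monocyte list was 7.63 to 7.70 in D2-Control and 11.15 to 11.37 in D2-IL6, that of the neutrophil list 5.92 to 5.93 and 8.29 to 8.64, and that of the erythroid list 15.04 to 15.11 and 14.83 to 14.85, and their part in the histone values was not tested. The IL-6 effect at D2 minus that at D1 gave 0 calls among the 57 (1.19% of all probe sets), none with an unadjusted p under 0.05, and a median of 0.05. The smallest p-values were those of H2ac22 at 0.15, H2ac15 at 0.16 and H4c6 at 0.36, with adjusted p of 0.67 to 0.73.

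In the mice, the step from stage I to stage II+III moved no histone gene past the threshold. In DWT 0 of 57 were called, against 0.245% of all, and 2 had an unadjusted p under 0.05. The median difference was 0.19, against 0.02 over all, and 28 genes had both stage II+III arrays above both stage I arrays, where 24.8% of all probe sets did. H2bc4 read 12.71 and 12.70 at stage I and 14.26 and 13.43 at stage II+III, without overlap, a difference of 1.14 ± 0.41 (adjusted p = 0.46). H2bc21, an H2B gene whose human counterpart is known to give polyadenylated messages, read 10.07 and 9.21, then 11.24 and 10.14, a difference of 1.05 ± 0.47 (adjusted p = 0.66), and H3c1 read 7.18 and 6.59, then 8.19 and 7.52, a difference of 0.97 ± 0.47 (adjusted p = 0.73). The same comparison without DKO stage I replicate 2 gave 5 unadjusted p-values under 0.05 and 0 calls. In DWT stage II+III replicate 1 was above replicate 2 for 56 of the 57 genes, by a median of 0.36, and in that group the erythroid list averaged 14.72 in replicate 1 and 14.00 in replicate 2, and the neutrophil list 11.30 and 13.01. Between these stages 4 of 13 neutrophil genes fell in DWT (median -3.37). No erythroid or DNA replication gene was called (medians 1.62 and 0.38), and the part of these shifts in the histone values was not tested.

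In DKO the same step also gave 0 calls (0.327% of all), with 25 unadjusted p-values under 0.05 and a median of 1.08 against -0.11 over all. The smallest p-values belonged to H4c8 at 1.38 ± 0.45 (adjusted p = 0.38), H2bc22 at 1.71 ± 0.60 and H4c14 at 0.77 ± 0.27 (adjusted p = 0.41). For 36 genes both stage II+III arrays were above both stage I arrays, where 12% of all probe sets were. With all arrays, 5 of 9 erythroid genes rose at this step in DKO (list median 2.87). No neutrophil or DNA replication gene was called (medians -0.89 and 1.44), and the part of these shifts in the histone values was not tested. The histone median of 1.08 rested on 1 array. Without DKO stage I replicate 2 it was 0.16, and H4c8, H2bc22 and H4c14 differed by 0.47, 0.52 and 0.34. With replicate 1 left out instead, more histone genes were called. The share of all probe sets called in that fit is not given, so those calls are not read as particular to histone genes.

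From stage II+III to stage IV nearly all histone genes read higher in both genotypes. In DWT both stage IV arrays lay above both stage II+III arrays for 50 of 57 genes, where 36% of all probe sets did, and the median difference was 0.50 against 0.12 over all. In DKO 55 of 57 did, against 31.6% of all, with a median of 0.90 against 0.06. These shares of all probe sets include those below background and are not matched for signal. The 50 genes in DWT include H1f7 and H1f8, and the 55 in DKO include H1f8 and H1f10. Those linker genes were below background on every array, so their differences are not measured transcripts. Past the threshold, limma called 1 rise in DWT, where 1.59% of all probe sets rose, and 10 in DKO, where 4.11% rose, and no histone gene fell in either. At the DWT step 11 genes had an unadjusted p under 0.05 and at the DKO step 19. Without DKO stage I replicate 2, whose gap from its replicate enters the shared estimate of the spread, 12 rose in DWT (6.88% of all) and 41 in DKO (8.69% of all), and all 12 were among the 41, which is 29.3% of them. With any 1 of the 4 arrays of the step itself left out, 0 or 1 gene was called in DWT and 0 or 1 in DKO, so these calls rest on all of the arrays.

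H3c1, a replication-dependent H3 gene, was the gene called in DWT. It read 7.18 and 6.59 at stage I, 8.19 and 7.52 at stage II+III, and 10.43 and 10.35 at stage IV in DWT. In DKO it read 6.98 and 8.20, then 7.17 and 7.35, then 10.20 and 9.69, so that in both genotypes the stage IV arrays stand above all earlier ones. The rise was 2.53 ± 0.47 in DWT (adjusted p = 0.018) and 2.68 ± 0.47 in DKO (adjusted p = 0.0088), in DKO at least 2.41 since the gene was near background at stage II+III.

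The linker histones H1f2, H1f5 and H1f6 were among the 10 genes called in DKO. H1f2 read 13.01 and 13.61 at stage II+III and 15.22 and 15.30 at stage IV in DKO, without overlap, and rose by 1.95 ± 0.44 (adjusted p = 0.025). In DWT it read 15.10 and 13.83, then 15.26 and 15.09, so that the first array of stage II+III lay between those of stage IV. H1f5 read 13.67 and 13.03, then 15.41 and 15.19 in DKO, and rose by 1.95 ± 0.52 (adjusted p = 0.048). In DWT H1f5 read 14.58 and 13.78, then 15.47 and 15.36, a difference of 1.23 that was called without DKO stage I replicate 2 (SE 0.30, adjusted p = 0.023).

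H1f6 read 6.36 and 6.70, then 8.63 and 9.14 in DKO, and rose by 2.36 ± 0.49 (adjusted p = 0.017), at least 1.35 given the background. The arrays of the 2 stages do not overlap for it. H1f3 read 13.99 and 14.17, then 16.00 and 15.66, a difference of 1.75 (adjusted p = 0.065), and H1f1 15.98 and 16.27, then 17.56 and 17.19, a difference of 1.25 (adjusted p = 0.47). Neither overlapped between stages, and neither passed with all arrays, whereas both passed without DKO stage I replicate 2 (adjusted p = 0.0011 for H1f3 and 0.0090 for H1f1). The 3 linker genes below background, H1f7, H1f8 and H1f10, stayed below it at stage IV.

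No H2A gene was called in DKO. Of the H2B genes, H2bc21 read 9.54 and 9.82, then 12.12 and 12.13, and rose by 2.44 ± 0.47 (adjusted p = 0.013), and H2bc4 read 12.54 and 12.91, then 14.74 and 14.28, and rose by 1.78 ± 0.41 (adjusted p = 0.026). Both were clear of overlap between the stages. In DWT H2bc21 read 11.24 and 10.14, then 12.08 and 12.25, and it was called there without DKO stage I replicate 2 (1.47 ± 0.42, adjusted p = 0.040). Among H4 genes H4c12 read 13.18 and 13.29, then 15.17 and 15.31, and rose by 2.00 ± 0.45 (adjusted p = 0.023). H4c2 rose by 1.66 ± 0.37 (adjusted p = 0.023), H4c11 by 1.77 ± 0.45 (adjusted p = 0.040) and H4c1 by 1.07 ± 0.26 (adjusted p = 0.035). With the DWT mouse as a block 7 of the 10 passed, and H1f5, H4c11 and H4c1 had adjusted p of 0.069, 0.064 and 0.063. That block leaves the DKO arrays unpaired. It alters the shared estimate of the spread, so it is not a check of pairing among the DKO arrays.

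Without DKO stage I replicate 2, the 41 rises in DKO were 5 of the H1 genes, 6 of H2A, 15 of 15 of H2B, 7 of H3 and 8 of H4, on chromosome 13 in 38 of 46 cases and on chromosome 3 in 3 of 8. The 12 in DWT were 2 of H1, none of H2A, 5 of H2B, 1 of H3 and 4 of H4, among them H4c6 at 1.09, H4c12 at 1.08, H1f3 at 0.86, H2bc18 at 0.75 and H4c1 at 0.70. The 12 genes of high signal differed less between the stages, by a median of 0.15 in DWT and 0.25 in DKO, than the other 45, by 0.61 and 1.10. Of the 31 genes that fell in control culture at D2, 28 had both DWT stage IV arrays above both stage II+III arrays. The same held for 50 of all 57 genes (87.7%), against 36% of all probe sets. The count therefore shows no link between the fall at D2 and the rise at stage IV.

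**Figure D4:**
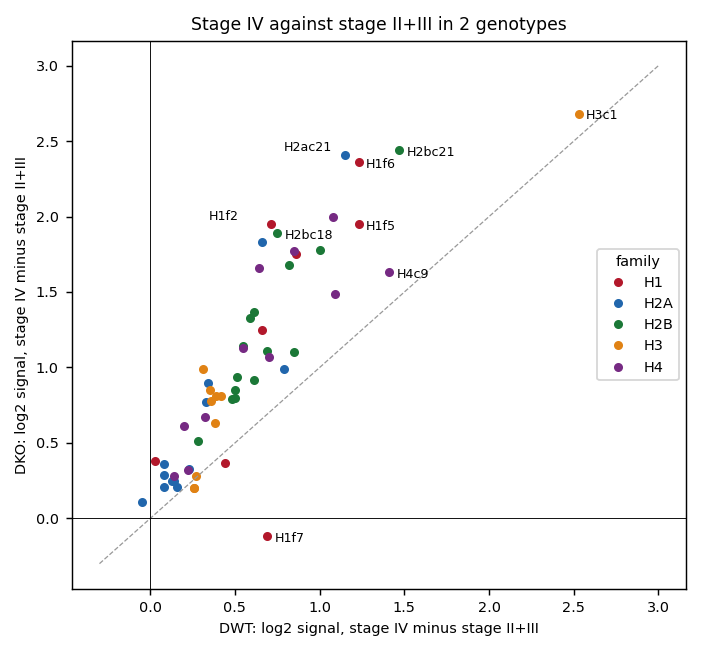
Stage IV minus stage II+III on the log2 scale for the 57 histone genes, with DWT on the horizontal and DKO on the vertical axis, coloured by family, and a dashed line where both are equal. Nearly all points lie above 0 on both axes and above the dashed line, and H3c1 is far out in both genotypes.

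Other gene groups at this step are given beside these values. In DKO 6 of 26 DNA replication genes rose (median 1.59), with Orc1 of the origin recognition complex at 2.42, the helicase subunit gene Cdc45 at 2.21 and the licensing gene Cdc6 at 2.13. Of the histone message genes 3 rose and 1 fell (median 0.98), with the cyclin E genes Ccne2 at 1.80 and Ccne1 at 1.58 and Cpsf3, which encodes the nuclease that cuts histone messages, at -2.17, and Slbp differed by 1.55. Of the condensation genes 5 of 12 rose (median 1.26), with Xpo7 at 2.77 and the condensin genes Ncapd2 at 2.60 and Ncapg at 2.36. Among the chaperone genes 2 rose (median 1.03), Rbbp4 by 1.81 and Asf1b by 1.19, and no replacement variant gene was called (median 0.17).

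In DWT Orc1 rose by 2.87 as the only DNA replication gene called (median 0.99), no histone message gene (median 0.75) and no chaperone gene (median 0.76) was called, and Kat2a fell by 2.78 (at least 1.37 lower). The DNA replication list averaged 13.15 to 13.25 at DWT stage IV, 13.03 to 13.16 at DKO stage IV, 13.49 to 13.71 at D1 and 11.06 to 11.37 at D2. On the deposited scale that list was highest at D1 and the histone median at stage IV. Cell type markers moved too: 8 of 9 erythroid genes rose in DKO (median 3.07) and 2 of 9 in DWT (1.44), and 9 of 13 neutrophil genes fell in DKO (-3.21) and 8 of 13 in DWT (-3.54). Of 9 monocyte and macrophage genes 4 fell in DKO (-2.44) and 5 in DWT (-3.10), and of 6 stem and progenitor genes 1 fell in DKO (-2.48) and 2 in DWT (-3.20). Of 5 eosinophil genes 1 fell in DWT (-2.92) and none was called in DKO (-2.28), and no T and NK cell gene was called in either (-2.30 and -1.82). The part of this shift in cell types in the histone differences was not tested.

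The DKO arrays were lower than the DWT arrays at stages I and II+III for most histone genes, but no single difference passed. As above, the shares of all probe sets include those below background. At stage I 0 of 57 were called (0.445% of all), 37 had an unadjusted p under 0.05, the median difference of DKO minus DWT was -1.19 against 0.15 over all, and both DKO arrays were below both DWT arrays for 43 genes, where 17.4% of all probe sets were. H1f5 read 14.25 and 14.06 in DWT and 13.11 and 11.43 in DKO, a difference of -1.88 ± 0.52 (adjusted p = 0.19). H2bc18 read 16.52 and 16.31, then 15.44 and 11.52, a difference of -2.94 ± 0.90 (adjusted p = 0.23), and H2bc22 differed by -2.02 ± 0.60 (adjusted p = 0.22). Both DKO arrays were low for H1f5 and H2bc18, with replicate 2 far below replicate 1.

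Much of the stage I median came from that replicate. Without it H1f5 differed by -1.04, H2bc18 by -0.98 and H2bc22 by -0.83 (adjusted p = 0.51, 0.23 and 0.45). The median was then -0.22, 51 of 57 differences were below 0, 8 had an unadjusted p under 0.05 and 0 passed, and H2ac6 and H4c9 turned to 0.25 and 0.53. With replicate 2 as the only DKO stage I array more histone genes were called. The share of all probe sets called in that fit is not given, so those calls are not read as particular to histone genes. Between the 2 DKO stage I arrays, 52 of the 57 genes were lower in replicate 2, 42 of them by more than 1, with a median of -1.97. Over the 51 histone genes above background in replicate 1 the median was -1.99, against -0.54 over all named probe sets above background there, of which 64% were lower. The differences were uneven: H2ac4 differed by -6.76, H2bc9 by -4.51, H2ac8 by -4.17, H2bc8 by -4.12, H2bc18 by -3.92 and H1f1 by -3.88. H1f2 was not lower, at 13.20 in replicate 1 and 13.56 in replicate 2, nor was H2bc21 at 9.01 and 9.27, nor H3c1 at 6.98 and 8.20, and H2bc4 differed by -0.38.

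**Figure D5:**
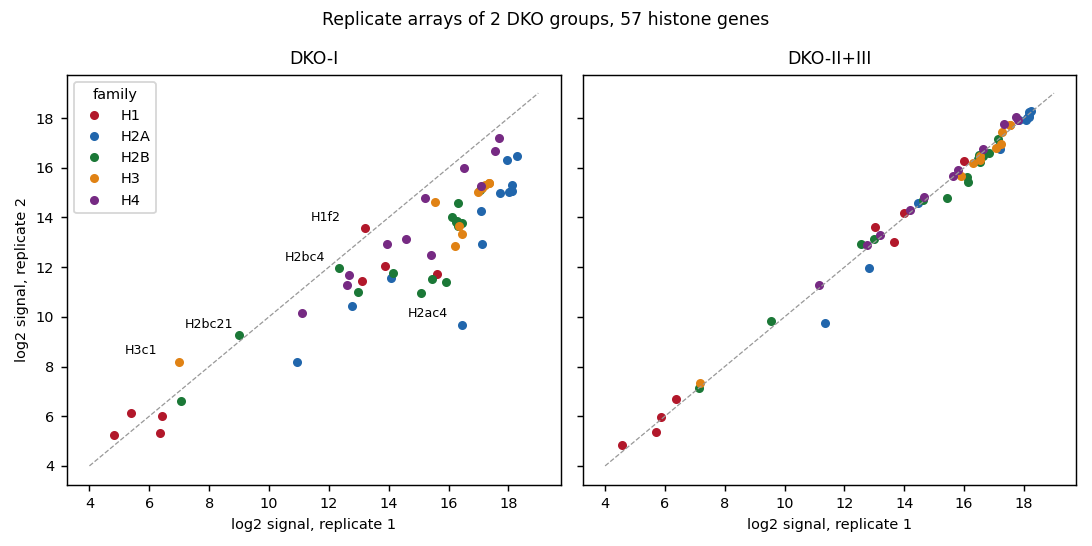
Log2 signal of the 57 histone genes in replicate 1 (horizontal) against replicate 2 (vertical), for DKO stage I and DKO stage II+III. At stage I most points lie far below the line of equality, with H1f2, H2bc21 and H3c1 above it, whereas the stage II+III points follow the line.

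At stage II+III DKO minus DWT gave 0 calls (0.618% of all), 2 unadjusted p-values under 0.05 and a median of -0.39 against 0.01 over all, and both DKO arrays were below both DWT arrays for 40 genes, where 21.2% of all probe sets were. H2bc4 differed by -1.12 ± 0.41 (adjusted p = 0.38), from 14.26 and 13.43 in DWT to 12.54 and 12.91 in DKO, and H1f2 by -1.16 ± 0.44 (adjusted p = 0.42), from 15.10 and 13.83 to 13.01 and 13.61. H2bc21 differed by -1.02 ± 0.47 (adjusted p = 0.56), from 11.24 and 10.14 to 9.54 and 9.82. The genotypes did not overlap for these 3 genes, and DWT replicate 1 was the highest array for each. Family medians were -0.57 for H1, -0.16 for H2A, -0.52 for H2B with 15 of 15 below 0, -0.32 for H3 and -0.22 for H4.

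Without DKO stage I replicate 2, 23 of the stage II+III differences had an unadjusted p under 0.05 and 1 passed, where 1.9% of all probe sets were called lower: H2bc18 read 17.21 and 16.66 in DWT and 16.08 and 15.61 in DKO and fell by 1.10 ± 0.21 (adjusted p = 0.023). Beside these values, the erythroid list averaged 14.00 to 14.72 in DWT stage II+III and 12.03 to 13.02 in DKO, the neutrophil list 11.30 to 13.01 and 15.37 to 15.37, and the DNA replication list 11.87 to 12.34 and 11.34 to 11.66. At stage I the median of the erythroid list was -3.33, with 7 of 9 genes falling, and that of the DNA replication list -1.73. Also at stage I, 1 of 5 eosinophil genes fell (median -3.94), 2 of 7 T and NK cell genes rose (1.02) and 1 of 9 monocyte and macrophage genes rose (0.09). At stage II+III 2 of 13 neutrophil genes and 1 of 9 monocyte and macrophage genes rose (3.10 and 1.12), and no eosinophil or T and NK cell gene was called (-1.91 and 1.06). The part of these shifts in the histone values was not tested, and genotype and sex of replicate 1 cannot be told apart in full with 1 male DWT mouse.

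At stage IV the genotypes were close. Limma called 0 of 57 genes (0.046% of all) with none at an unadjusted p under 0.05, and the median was 0.03 against -0.02 over all. Leaving out DKO stage I replicate 2 gave 2 unadjusted p-values under 0.05 and 0 calls. Both DKO arrays were above both DWT arrays for 13 genes, where 22.4% of all probe sets were, and below for 7, where 23.4% were. H4c2 read 15.18 and 15.01 in DWT and 15.89 and 15.90 in DKO, without overlap, a difference of 0.80 ± 0.37 (adjusted p = 0.62). H4c9 differed by 0.79 ± 0.63 (adjusted p = 0.83) and H1f7, which was below background, by -0.51. The erythroid list averaged 15.50 to 15.74 in DWT and 15.40 to 15.43 in DKO, and the neutrophil list 7.86 to 9.97 and 12.01 to 12.46.

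Whether the genotype difference itself changed between stages was tested as an interaction. From stage I to II+III 0 histone genes were called and none had an unadjusted p under 0.05, with H3c1 at -1.30, H4c8 at 1.20 and H3c13 at 1.17 (adjusted p = 0.80). These values rest on DKO stage I replicate 2: without it they were -0.69, 0.29 and 0.19 (adjusted p = 1.00), the median of the 57 went from 0.98 to -0.06, and again 0 were called and none had an unadjusted p under 0.05. From stage II+III to IV 0 were called and 1 had an unadjusted p under 0.05, although 53 of 57 values were above 0, against 49.9% of all, with a median of 0.39. H1f2 stood at 1.24 ± 0.63, H4c2 at 1.02 ± 0.52 and H1f7 at -0.82 (adjusted p = 1.00). No probe set of the array was called in either interaction, a share of 0%. Without DKO stage I replicate 2, 9 had an unadjusted p under 0.05 at the later step and 0 passed, with H2bc18 at 1.13 ± 0.29 (adjusted p = 0.42). The larger number of calls in DKO than in DWT at the stage IV step is therefore not shown to be a difference between the genotypes.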

How the data were processed

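Mouse Clariom S arrays were labelled from total RNA with the Pico kit, per the labels' protocols. The authors deposited log2 signals from RMA in Affymetrix Expression Console, per the submitters' processing notes; versions, and whether all 20 arrays were normalised together, are not given in the sources used here. Values ran from 2.88 to 19.28. Arrays have no read depth, and 2 per group limits precision.

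Here limma 3.58.1 in R 4.3.3 was fitted (lmFit, eBayes with an intensity trend) to the 8 cultured arrays (residual df 4, prior 6.41) and, separately, the 12 in vivo arrays (residual df 6, prior 4.52), with 1 mean per group and Benjamini-Hochberg adjustment over 19572 probe sets with 1 symbol, at an adjusted p under 0.05. The script was tested on simulated data. A fold of a gene near background on all arrays of a group is given as a bound. Nothing states that the replicates are separate cultures, so p-values there measure only the spread between these samples. DWT replicate numbers mark the male and the female mouse. Their deviations from the group means correlated at 0.10 (stages I and II+III), 0.02 (I and IV) and 0.12 (II+III and IV). DKO arrays are not tied to mice by the labels. Taken by replicate number, their deviations correlated at 0.30, 0.20 and 0.37 for the same pairs of stages. DKO was not blocked, so any dependence between its arrays across stages is not accounted for in the p-values.

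Members and lists were chosen with earlier results of these data known. Named are, per comparison, up to 10 genes each way that passed without overlap (with 0 passing, the 3 smallest p-values), all H1 genes, and each core family's widest and narrowest range; genes outside this rule, such as those that set DKO stage I replicate 2 apart, were chosen after their values were seen. Of other lists, up to 3 genes that passed were named, and Slbp, Npat and Lsm10. Alternatives were quantile normalisation, median centring, a filter on dim probe sets, no trend, all arrays in 1 fit, female arrays only, the mouse as a block and leaving out each array. Leaving out DKO stage I replicate 2 throughout was added after seeing the data. Python 3.11.15 and matplotlib 3.10.9 served for motifs and plots.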

Additional observations from a re-analysis of the deposited data

How the results depend on the processing

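Without DKO stage I replicate 2 the median DKO effect at stage II+III minus I turned from 0.98 to -0.06, with 22 of 57 values above 0 against 47, and at stage I DKO against DWT turned to 0.25 for H2ac6 and 0.53 for H4c9. None of these passed with or without that array. The calls for D2 against D1 (36 in control, 34 with IL-6) were 39 and 38 after quantile normalisation, 37 and 33 after median centring and 36 and 35 with a filter on dim probe sets, but 10 and 6 without the intensity trend and 3 and 2 with all 20 arrays in 1 fit. That fit also gave 2 for DKO against DWT at stage I, 3 for DWT stage IV against II+III and 18 for the same step in DKO. With 19 arrays in 1 fit, without DKO stage I replicate 2, the calls were 31 (D2 against D1, control), 20 (IL-6), 13 (DKO against DWT, stage II+III), 1 (stage IV), 2 (DWT stage II+III against I), 30 (DWT stage IV against II+III) and 46 (the DKO step). With female arrays only, 0 histone genes were called at either stage IV step.

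Leaving out 1 array at a time gave 29 to 35 calls (D2 against D1, control), 22 to 27 (IL-6), 0 to 47 (DKO against DWT, stage I), 0 to 1 (stage II+III), 0 to 12 (DWT stage IV step), 0 to 45 (DKO stage II+III against I), 0 to 41 (DKO stage IV step) and 0 to 38 (DKO effect, stage II+III minus I), and 0 in the other comparisons. The values 47, 45 and 38 came without DKO stage I replicate 1, and 1, 12 and 41 without its replicate 2. For the stage IV steps each array of the step left out gave 0 or 1 call: 1 without DWT stage II+III replicate 1 and without DKO stage II+III replicate 2, and 0 without the others. With the DWT mouse as a replicate block, which leaves the DKO arrays unblocked, the DKO stage IV step gave 7 calls and the DWT step 1. The block changed no other count. After quantile normalisation, median centring and the dim filter the DKO step gave 10, 9 and 13 calls. Counts in this section stand without the share of all probe sets called at the same setting. They show how far the calls depend on the setting and are not read as particular to histone genes. With 2 arrays a group, a missed threshold does not show that values are alike, and bright probe sets may be compressed.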
